A study of Mus musculus with 23 samples.

Results

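Iron and heme handling was followed through 10 genes, Hmox1, Slc40a1, Slc11a1, Slc48a1, Fth1, Ftl1, Tfrc, Blvrb, Blvra and Hpx, chosen by their symbols among the 33280 genes of a table of RNA sequencing counts. The 23 libraries came from brain macrophages of Ccr2creERT2/+ R26tdT/tdT mice, sorted by flow cytometry 1 day after a stroke. In these mice tamoxifen (2 mg per day, from the last day of gavage) turned on tdTomato (tdT), a red fluorescent mark, in cells using the promoter of the monocyte receptor gene Ccr2, and descendants of these cells kept the mark. A cell without it is not shown to be of another origin, since recombination need not be complete. Animals were given by oral gavage for 7 days either BLZ945 at 200 mg/kg, which blocks CSF-1 receptor signalling and so depletes brain macrophages, or vehicle (CTL). After 8 weeks a stroke was induced by thrombin, which formed a clot in the middle cerebral artery. Microglia (MG) were sorted as CD206- cells and subdural CNS-associated macrophages (sdCAMs), which line the leptomeninges and the vessels, as CD206int-high cells, split by the mark into tdT- and tdT+ cells, from a brain slice without choroid plexus.

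There were 5 libraries in each of MG CTL, MG BLZ945, tdT- CTL and tdT- BLZ945, and 3 in tdT+ BLZ945. All groups held both sexes and shared genotype, tamoxifen and stroke, and libraries from animals without stroke were not analysed here. Libraries are named by sex and number (F1, F2, F3, M1, M2), and within a treatment the same name means the same animal or pool. CTL libraries held 1 animal each and BLZ945 libraries 2 animals each, apart from F2 with 1, by the library names, so pooling largely went with treatment. The study's methods describe every BLZ945 replicate as a pool of 2 mice, which differs from the F2 names. In these names 1 animal number occurs in both the F2 and the M1 libraries of BLZ945 mice, although F2 is labelled female and M1 male, so the number may be wrong in 1 of the names or the libraries may not be independent.

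Total counts per library lay between 9433960 and 13276081. The 6 MG markers summed to between 17100 and 26110 CPM (counts scaled to library size, the usual normalised read count) in MG and to between 1152 and 2355 CPM in sdCAMs, whereas the 5 sdCAM markers summed to between 9.85 and 47.5 CPM in MG and to between 8244 and 14270.0 CPM in sdCAMs, so each population was high in the markers of its label. Markers of astrocytes and fibroblasts also differed between the populations without overlap. The 4 astrocyte markers summed to between 1.95 and 8.04 CPM in MG and between 35.98 and 248 CPM in sdCAMs, with Gja1 at a mean of 2.63 CPM in MG CTL and 107 CPM in tdT- CTL, and the 4 fibroblast markers to between 0.153 and 2.21 CPM in MG and between 15.1 and 57.2 CPM in sdCAMs. Every difference between sdCAMs and MG given here goes together with these sums, and their part in it was not tested. Libraries that stood apart were tdT- BLZ945 F2, in which the red cell markers summed to 312.9 CPM against at most 29.9 CPM elsewhere, tdT- BLZ945 F1 and M1, in which the monocyte markers summed to 231 and 100 CPM against at most 43.0 CPM elsewhere, F1 also with neutrophil markers at 74.2 CPM, tdT+ BLZ945 F3 and tdT- CTL M1, with oligodendrocyte markers at 300 and 232 CPM against at most 134 CPM elsewhere, and MG CTL M2, with the lowest MG marker sum (17100 CPM). Of the red cell markers, Hba-a2, Slc4a1 and Ahsp were at 0 in every group. In tdT- BLZ945 F1, 5 of the 6 neutrophil markers were at 0, and Retnlg alone made up the sum. That library had counts in all 5 monocyte markers, whereas 3 of them were at 0 in tdT- BLZ945 M1. The results were also computed with each of these libraries left out, and the part of these signals in them was not otherwise tested.

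Macrophages that engulf ageing or spilled red cells break down their heme and recycle the iron. Heme leaves the phagolysosome through a transporter, heme oxygenase opens the ring into biliverdin, carbon monoxide and iron, biliverdin reductases convert biliverdin into bilirubin, and the iron is stored in ferritin or leaves the cell through ferroportin. Macrophages at the borders and vessels of the brain are known for the haemoglobin scavenger receptor Cd163, and microglia use the same machinery of uptake, storage and export.

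Part of this pathway is controlled after transcription by iron responsive elements, short hairpins in messenger RNAs that are bound by iron regulatory proteins when iron is low, which blocks translation from the 5′ end or protects the RNA from the 3′ end. The hairpins of the members are shown because they mark which transcripts can also be set by iron in ways that read counts do not show. They were found in the Gencode M21 transcripts of GRCm38, searched on the transcript strand as an unpaired C, 5 bases of stem, the loop CAGTGN and 5 bases pairing with the stem, G–T pairs allowed. Sites are printed 5′ to 3′ as DNA with the loop in capitals.
Fth1, 5′ UTR, chr19:9982732-9982759, plus strand: ttcctgcttcaaCAGTGCttgaacggaa
Ftl1, 5′ UTR, chr7:45459780-45459807, minus strand: gtcttgcttcaaCAGTGTttgaacggaa
Slc40a1, 5′ UTR, chr1:45925466-45925493, minus strand: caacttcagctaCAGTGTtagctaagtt
Tfrc, 3′ UTR, chr16:32631219-32631246, plus strand: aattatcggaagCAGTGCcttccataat
Tfrc, 3′ UTR, chr16:32631598-32631625, plus strand: cattatcgggagCAGTGTcttccataat
Tfrc, 3′ UTR, chr16:32631663-32631690, plus strand: ctatatcggagaCAGTGAtctccatatg
Tfrc, 3′ UTR, chr16:32631710-32631737, plus strand: aattatcgggaaCAGTGTttcccataat

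The pattern was rare among all transcripts, at 0.122% of 49055 5′ UTRs and 0.455% of 44400 3′ UTRs. It lay in the 5′ UTR of 4 of 5 coding transcripts of Fth1, 1 of 2 of Ftl1 and 1 of 4 of Slc40a1, and in the 3′ UTR of 1 of 3 coding transcripts of Tfrc, which held 4 such sites. The other 6 members had no match to these letters. Counts were summed per gene, so transcripts with and without the hairpin cannot be told apart.

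The first question was how sdCAMs and MG differ in this pathway. In CTL mice, 7 of the 9 members that could be tested were higher in tdT- sdCAMs than in MG and none was lower. Over all 12697 genes tested, 25.6% were called in this comparison (15.3% as higher). In 6 members all tdT- libraries lay above all MG libraries, as they did for 15% of all genes. The median log2 fold change was 1.27 over the 9 members and −0.0070 over all genes tested. In BLZ945 mice the same 7 members were higher in tdT- sdCAMs and Slc11a1 was lower, against 32.4% of all genes called (18.3% higher and 14.1% lower), and 6 members were higher without overlap, against 10.4% of all genes. tdT+ sdCAMs differed from MG in 8 of 9 members, 6 higher and 2 lower, against 30.5% of all genes called (15.9% higher and 14.6% lower). Of these, 5 were higher without overlap (17.4% of all genes) and 2 lower (18.8%). All calls are from edgeR's quasi-likelihood test at an adjusted p under 0.05, with p-values adjusted over all genes of a comparison. Hpx, the plasma scavenger of free heme, was not tested, since it had 10 counts in all: 4 in tdT- CTL F1, 1 in MG BLZ945 F3 and 5 in MG BLZ945 M2.

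**Figure D1:**
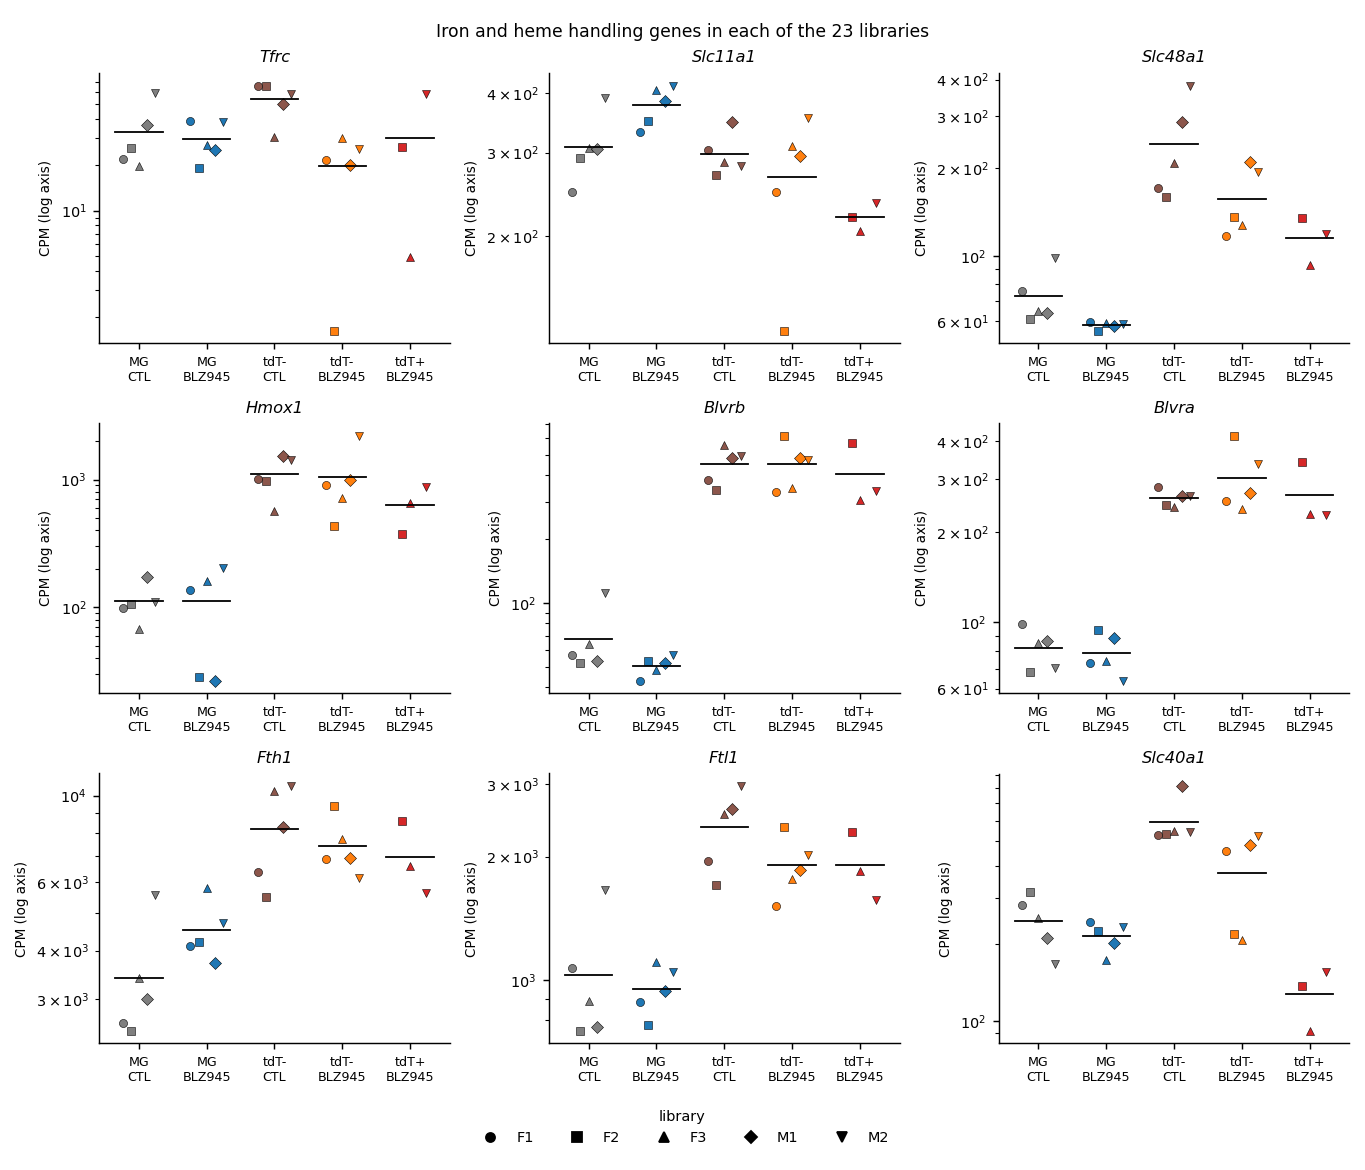
Level of each tested member in CPM (log axis, scaled per panel) in every library, with groups on the horizontal axis, symbols for library names and lines at group means. The heme degradation genes Hmox1, Blvrb and Blvra separate all sdCAM from all MG libraries, while Slc40a1 is highest in tdT- CTL and lowest in the 3 tdT+ libraries (91.4 to 155 CPM).

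The differences were widest in Hmox1 and Blvrb, both of heme degradation. Hmox1, the inducible heme oxygenase, was at 99.5, 106, 67.8, 174 and 109.8 CPM in F1, F2, F3, M1 and M2 of MG CTL and at 1002, 979.5, 568, 1525 and 1433 CPM in the same animals' tdT- sdCAMs. All tdT- libraries lay above all MG libraries, and F3 was the lowest and M1 the highest animal in both populations. The difference was 9.86-fold (log2 fold change 3.30, SE 0.52, edgeR adjusted p = 4.435e-05). In BLZ945 mice, Hmox1 was at 137, 28.6, 160.0, 26.6 and 205 CPM in MG and at 908, 434, 714, 985 and 2203 CPM in tdT- sdCAMs, in the same order of libraries. The MG values fell apart into 2 low libraries, F2 and M1, and 3 higher ones, and the 2 low libraries are those whose names share an animal number. In the tdT- sdCAMs of the same pools F2 was the lowest, but M1 was not low. tdT- sdCAMs were 9.52-fold above MG (log2 fold change 3.25, SE 0.52, edgeR adjusted p = 4.865e-05). tdT+ sdCAMs, at 376, 661 and 877 CPM in F2, F3 and M2, were 5.78-fold above MG (log2 fold change 2.53, SE 0.61, edgeR adjusted p = 0.0096).

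Blvrb, a biliverdin reductase that also acts on flavins, was at 56.8, 52.0, 63.9, 53.0 and 111 CPM in MG CTL and at 380.5, 341, 555, 483 and 491 CPM in tdT- CTL. In BLZ945 mice it was at 42.8, 53.3, 48.3, 51.9 and 57.0 CPM in MG, at 334, 614, 349, 484 and 473 CPM in tdT- sdCAMs, and at 566, 307 and 336 CPM in the tdT+ sdCAMs of F2, F3 and M2. Every sdCAM library was thus above every MG library. The differences from MG were 6.66-fold in tdT- CTL (log2 fold change 2.73, SE 0.21, edgeR adjusted p = 1.773e-09), 8.96-fold in tdT- BLZ945 (3.16, SE 0.22, edgeR adjusted p = 2.69e-10) and 8.01-fold in tdT+ BLZ945 (SE 0.20, edgeR adjusted p = 2.036e-06). Blvra, the main adult biliverdin reductase, was less far apart but as regular. It was at 98.4, 68.0, 85.1, 86.8 and 70.5 CPM in MG CTL, at 73.2, 94.2, 74.4, 88.2 and 63.6 CPM in MG BLZ945 and at 282.5, 245, 241, 262.99 and 262 CPM in tdT- CTL. In tdT- BLZ945 it was at 254, 418, 238, 269 and 335 CPM and in tdT+ BLZ945 at 342, 229 and 228 CPM, with F2 highest in both. The differences from MG were 3.16-fold in tdT- CTL (SE 0.16 on the log2 scale, edgeR adjusted p = 3.182e-08), 3.87-fold in tdT- BLZ945 (SE 0.16, edgeR adjusted p = 3.312e-09) and 3.41-fold in tdT+ BLZ945 (SE 0.18, edgeR adjusted p = 4.183e-05).

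Slc48a1 (HRG1) carries heme out of the phagolysosome. It was at 76.1, 60.8, 64.9, 64.1 and 98.0 CPM in MG CTL, and at 170.1, 159, 207, 287 and 382 CPM in tdT- CTL. In BLZ945 mice it was at 59.5, 55.4, 58.8, 57.5 and 58.4 CPM in MG, at 117, 136, 128, 210.0 and 194 CPM in tdT- sdCAMs and at 134, 92.9 and 118 CPM in tdT+ sdCAMs. No sdCAM library of a treatment overlapped with the MG libraries of the same treatment. The differences from MG were 3.30-fold in tdT- CTL (log2 fold change 1.72, SE 0.22, edgeR adjusted p = 2.697e-06), 2.73-fold in tdT- BLZ945 (1.45, SE 0.22, edgeR adjusted p = 2.346e-05) and 2.01-fold in tdT+ BLZ945 (1.00, SE 0.15, edgeR adjusted p = 0.0005266). The MG BLZ945 libraries were the most alike, with an SD of 1.57 CPM around a mean of 57.9 CPM (n = 5).

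Ferritin stores iron in shells of heavy (Fth1) and light (Ftl1) chains. Both genes have many processed copies in the mouse genome, and how reads matching several places were counted is not given in the sources used here, so their levels are uncertain. Together they took between 0.350% and 0.772% of all counts in MG CTL libraries and between 0.718% and 1.32% in tdT- CTL libraries. Fth1 was at 2608, 2483, 3395, 2996 and 5564 CPM in MG CTL and at 6345, 5501, 10258 and 8317 CPM in F1, F2, F3 and M1, and 10593 CPM in M2, of tdT- CTL. M2 was the highest library in both populations, and its MG value lay just above the lowest sdCAM value. In BLZ945 mice, Fth1 was at 4104, 4212, 5788, 3727 and 4707 CPM in MG, at 6872, 9395, 7743, 6926 and 6151 CPM in tdT- sdCAMs and at 8622, 6593 and 5616 CPM in tdT+ sdCAMs. The differences from MG were 2.40-fold in tdT- CTL (log2 fold change 1.26, SE 0.21, edgeR adjusted p = 0.0001011), 1.66-fold in tdT- BLZ945 (0.73, SE 0.21, edgeR adjusted p = 0.0112) and 1.55-fold in tdT+ BLZ945 (0.63, SE 0.18, edgeR adjusted p = 0.0203). The last 2 calls were not firm. With the animal as a block, the tdT+ difference was 0.50 on the log2 scale (edgeR adjusted p = 0.133), it was also lost in the model of all libraries (0.62, adjusted p = 0.0571), without MG BLZ945 F1 (adjusted p = 0.052) or tdT+ BLZ945 F2 (adjusted p = 0.0795), and the tdT- difference was 0.62 without libraries F1 and F2 of tdT- BLZ945 (edgeR adjusted p = 0.0584).

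Ftl1 followed Fth1. It was at 1071, 753, 891, 771 and 1659 CPM in MG CTL and at 1952, 1709, 2537, 2610.5 and 2973 CPM in tdT- CTL. In BLZ945 mice it was at 886, 778, 1108, 940.2 and 1047 CPM in MG, at 1516, 2367, 1765, 1860.3 and 2014 CPM in tdT- sdCAMs and at 2301, 1845 and 1569.9 CPM in tdT+ sdCAMs. All sdCAM libraries lay above the MG libraries of the same treatment. The differences from MG were 2.28-fold in tdT- CTL (log2 fold change 1.19, SE 0.20, edgeR adjusted p = 7.947e-05), 2.02-fold in tdT- BLZ945 (1.01, SE 0.20, edgeR adjusted p = 0.0004204) and 2.02-fold in tdT+ BLZ945 (1.01, SE 0.16, edgeR adjusted p = 0.0009578).

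Slc40a1 encodes ferroportin, the known iron exporter of mammalian cells, and it was the one member called above MG in some sdCAM comparisons and below it in another. It was at 284, 317, 251, 209.6 and 166 CPM in MG CTL and at 529, 530.4, 548, 819 and 543 CPM in tdT- CTL, where M1 stood above 4 close libraries. The 2 groups did not overlap, and tdT- CTL was 2.41-fold higher (log2 fold change 1.27, SE 0.24, edgeR adjusted p = 0.0002963). In BLZ945 mice it was at 243, 224, 173, 201 and 232 CPM in MG and at 458, 218, 206, 481 and 523 CPM in tdT- sdCAMs. Libraries F2 and F3 of the tdT- group lay within the MG range and the other 3 above it, and the difference was 1.77-fold (0.83 on the log2 scale, SE 0.24, edgeR adjusted p = 0.0097). The tdT+ sdCAMs were at 137, 91.4 and 155 CPM in F2, F3 and M2, below every other library of the data set. They were 1.66-fold below the MG of these mice (log2 fold change −0.73, SE 0.19, edgeR adjusted p = 0.0132). A model fitted to the 23 libraries together did not call it (adjusted p = 0.0517).

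Within sdCAMs, the comparison of tdT+ with tdT- cells asks whether cells carrying the Ccr2 mark differ from unmarked neighbours of the same brains. No member was called there (edgeR), against 0.206% of all 13076 genes, with 1 of 9 members at an unadjusted p under 0.05 and 6.91% of all genes. That member was Slc40a1, with a mean of 128 CPM in tdT+ (SD 32.9, n = 3) and of 377 CPM in tdT- BLZ945 (SD 152, n = 5). The groups did not overlap, as was so in this direction for 1.64% of all genes, and all 3 tdT+ libraries lay below the tdT- library of their own animal or pool. The lower level (log2 fold change −1.58, SE 0.32, 95% interval −2.27 to −0.90) missed the threshold (edgeR adjusted p = 0.0726). It passed with DESeq2 (adjusted p = 7.784e-05), without the expression filter (0.0142), in the model of all 23 libraries (0.0073) and without tdT- BLZ945 F2 (0.0225) or F3 (0.0253), and did not pass with the animal as a block (log2 fold change −1.22, adjusted p = 0.446), the adjusted p ranging from 7.784e-05 to 0.446 over 14 alternatives. Against tdT- CTL, 1 of 9 members was called in tdT+ sdCAMs, against 0.283% of all genes (0.214% as lower). This was again Slc40a1, 4.65-fold lower (log2 fold change −2.22, SE 0.33, edgeR adjusted p = 0.0056, and between 4.776e-10 and 0.0482 over 13 alternatives). Slc40a1, Slc48a1 and Slc11a1 were lower there without overlap, against 5.05% of all genes. The summed sdCAM markers were between 8244 and 11050.0 CPM in tdT+ and between 10610.0 and 13370.0 CPM in tdT- BLZ945 libraries. The means differed most in Cd163 (353 against 1457 CPM) and Lyve1 (1537 against 2748 CPM). They differed less in Mrc1 (2683 against 3016 CPM), Pf4 (3317 against 3403 CPM) and Ms4a7 (1477 against 1683 CPM). The part of these markers in the Slc40a1 result was not tested. In these bulk samples, fewer cells of a type and less RNA per cell cannot be told apart.

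**Figure D2:**
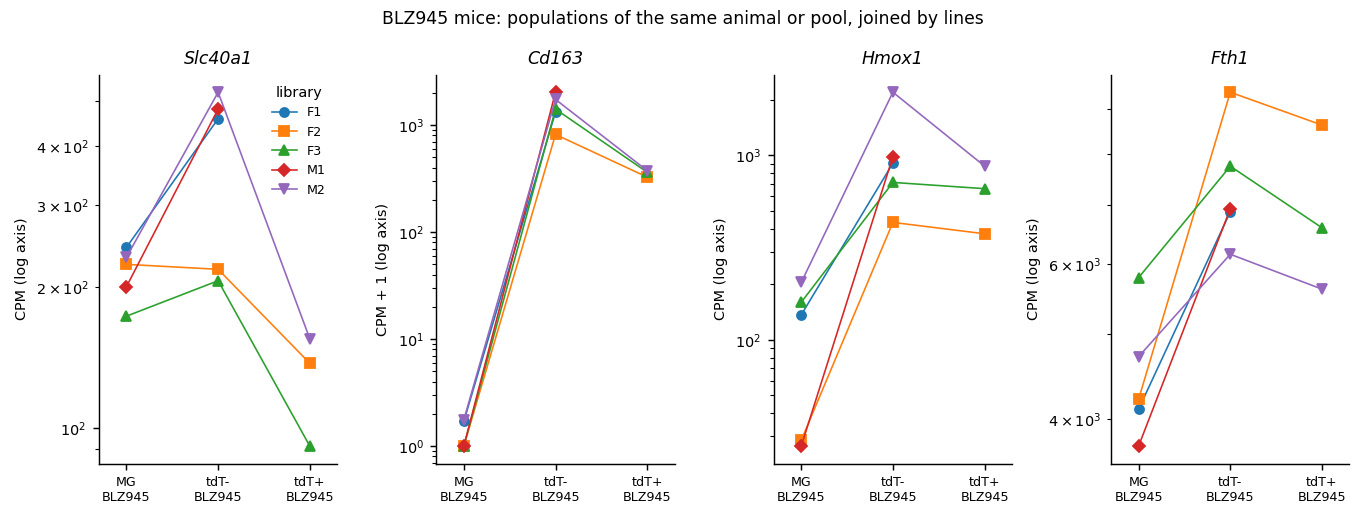
Levels of Slc40a1, Cd163, Hmox1 and Fth1 (vertical log axes in CPM, with 1 added for Cd163) in the BLZ945 mice, with lines joining populations of the same animal or pool; F1 and M1 have no tdT+ library here. Slc40a1 and Cd163 fall from tdT- to tdT+ cells in each of the 3 animals or pools with both, while Fth1 in tdT+ cells lies above MG in each of the 3.

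For the other members no difference between the sdCAM populations of BLZ945 mice was shown. The 95% intervals of the log2 difference between tdT+ and tdT- cells were −0.42 to 0.38 for Ftl1, −0.56 to 0.33 for Fth1, −0.69 to 0.31 for Blvrb and −0.62 to 0.20 for Blvra. Those of Hmox1 (−1.69 to 0.21), Slc48a1 (−1.08 to 0.14) and Slc11a1 (−0.83 to 0.23) reached further towards lower levels in tdT+ cells, and that of Tfrc (−0.88 to 2.03) was wide. Against tdT- CTL, Slc48a1 in tdT+ sdCAMs was 2.09-fold lower without overlap (log2 fold change −1.07, SE 0.29, edgeR adjusted p = 0.235), a difference called by DESeq2 (adjusted p = 0.0353) and in the model of all libraries (0.0415) but not by the main test.

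**Figure D3:**
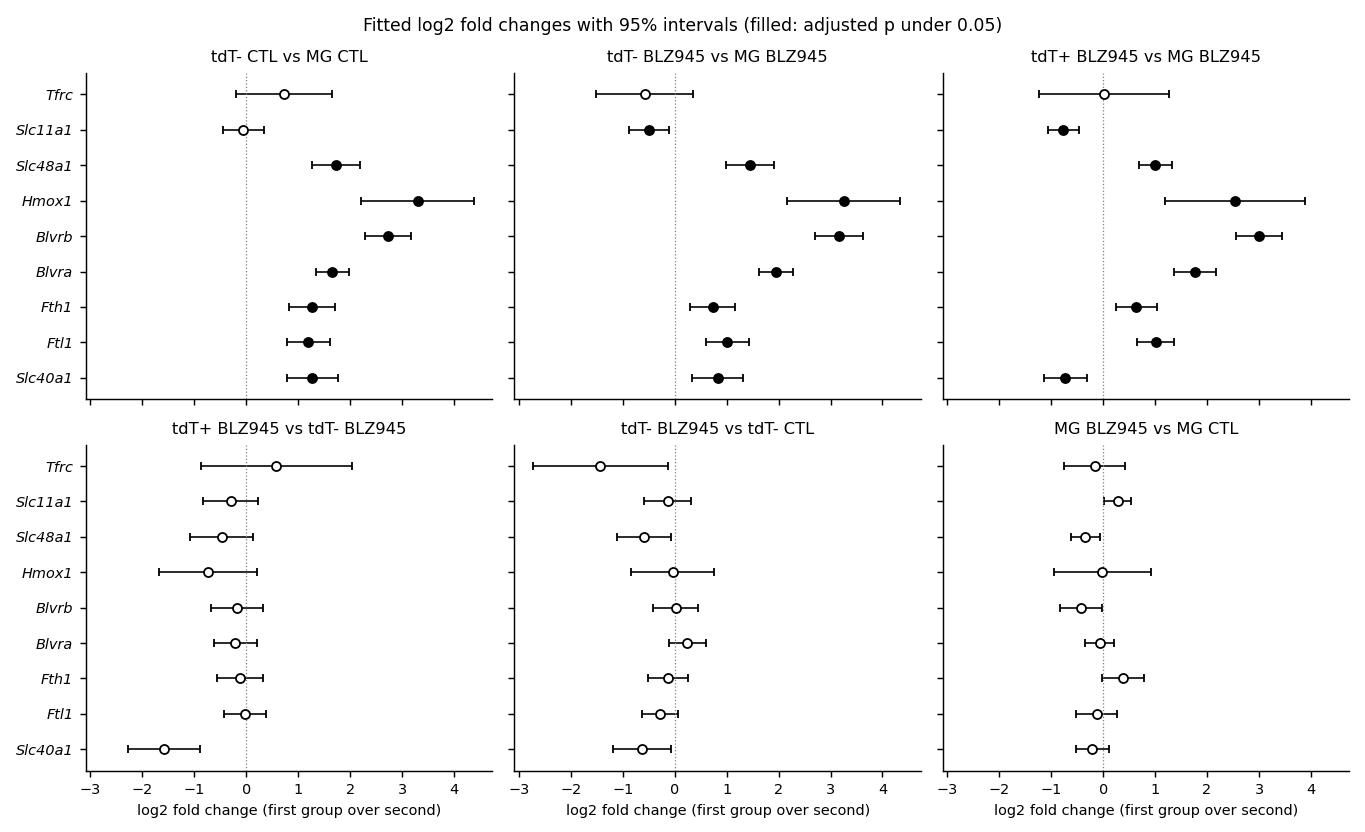
Fitted log2 fold change of the 9 tested members (horizontal axis, first group over second) with 95% intervals in 6 comparisons, filled where the edgeR adjusted p was under 0.05. The upper 3 panels compare sdCAMs with MG and hold nearly all filled points; Slc40a1 lies right of 0 for both tdT- groups and left of 0 for tdT+ sdCAMs.

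Slc11a1 (NRAMP1) moves iron and manganese out of the phagosome. It was at 248, 292, 307, 305 and 391 CPM in MG CTL and at 303, 269, 287, 347 and 281 CPM in tdT- CTL, with overlapping ranges and a log2 difference of −0.05 (95% interval −0.44 to 0.33). In BLZ945 mice it was at 332, 350.2, 408, 385 and 416 CPM in MG, at 247, 126, 310.2, 294 and 355 CPM in tdT- sdCAMs and at 219, 205 and 235 CPM in tdT+ sdCAMs. F2 was by far the lowest tdT- library. The tdT- difference from MG was −0.49 on the log2 scale (SE 0.19, edgeR adjusted p = 0.0486), and the call was lost with DESeq2 (adjusted p = 0.0526), with other scaling factors (0.0658), without the expression filter (0.0563), without both libraries F1 and F2 (0.196) and without any one of 7 of the 10 libraries. The tdT+ libraries did not overlap with MG and were 1.71-fold lower (log2 fold change −0.77, SE 0.14, edgeR adjusted p = 0.001699).

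Tfrc, the transferrin receptor that brings iron into the cell and the member with hairpins in its 3′ UTR, was not called between sdCAMs and MG. It was at 22.0, 25.6, 19.7, 36.3 and 59.6 CPM in MG CTL, at 39.0, 19.03, 26.8, 25.2 and 38.2 CPM in MG BLZ945 and at 66.3, 65.3, 30.6, 50.0 and 57.9 CPM in tdT- CTL. In tdT- BLZ945 it was at 21.6, 1.62, 29.8, 19.8 and 25.5 CPM, and in tdT+ BLZ945 at 26.3, 4.95 and 58.0 CPM. The lowest value rested on 15 counts in tdT- BLZ945 F2, the library with the highest red cell marker sum, and that library's part in the Tfrc level was not tested beyond leaving it out. The log2 differences from MG were 0.73 in tdT- CTL (95% interval −0.21 to 1.66), −0.58 in tdT- BLZ945 (−1.51 to 0.36) and 0.02 in tdT+ BLZ945 (−1.23 to 1.27). With single libraries left out, the difference lay between 0.59 and 1.05 in tdT- CTL and between −0.78 and −0.29 in tdT- BLZ945.

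The second question was whether repopulation after BLZ945 altered the pathway. In MG, no member was called (edgeR, and 0 with DESeq2), against 0.408% of 11264 genes with edgeR and 2.16% with DESeq2, while 3 of 9 members had an unadjusted p under 0.05 (13.2% of all genes). These were Slc48a1 (log2 fold change −0.35, SE 0.13, edgeR adjusted p = 0.276), Blvrb (−0.43, SE 0.19, edgeR adjusted p = 0.345) and Slc11a1 (0.28, SE 0.12, edgeR adjusted p = 0.339). Slc48a1 was lower in BLZ945 without overlap, against 1.31% of all genes. Mean Fth1 was 3409 CPM in MG CTL (SD 1256) and 4508 CPM in MG BLZ945 (SD 797) (log2 fold change 0.39, SE 0.19, edgeR adjusted p = 0.406). MG CTL M2, the library with the lowest MG marker sum, was the highest of its group in Fth1, Ftl1, Tfrc, Blvrb, Slc48a1 and Slc11a1 and the lowest in Slc40a1. Without it the Fth1 difference was 0.64 and was called (edgeR adjusted p = 0.027), the differences of Ftl1 and Tfrc changed sign (0.12 and 0.18), those of Blvrb and Slc48a1 shrank to −0.17 and −0.21, and no other member was called.

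In tdT- sdCAMs, no member was called between BLZ945 and CTL (edgeR, and 0 with DESeq2), and 0% of all 13076 genes were called with edgeR and 0.431% with DESeq2. At an unadjusted p under 0.05 were 3 of 9 members (5.33% of all genes), each lower after BLZ945, and 2 of them without overlap (1.27% of all genes). Slc40a1 was at 377 ± 152 CPM against 594 ± 126 CPM in CTL (SD, n = 5 each), every BLZ945 library below every CTL library (log2 fold change −0.63, 95% interval −1.19 to −0.07, edgeR adjusted p = 0.835). Slc48a1 was at 157 ± 41.9 CPM against 241 ± 93.2 CPM with overlap (−0.60, 95% interval −1.12 to −0.08, edgeR adjusted p = 0.822), a difference of −0.37 without tdT- CTL M2. Tfrc was at 19.7 ± 10.8 CPM against 54.0 ± 14.7 CPM without overlap (−1.43, 95% interval −2.73 to −0.14, edgeR adjusted p = 0.835). Hmox1, at 1049 ± 679.6 CPM against 1102 ± 387 CPM, had a 95% interval of −0.84 to 0.75 on the log2 scale. An interaction tested whether treatment acted differently on tdT- sdCAMs than on MG. No member was called (edgeR, 0 also with DESeq2), against 0.0394% of all genes (0.741% with DESeq2), and 0 had an unadjusted p under 0.05, against 8.69% of all genes. The largest interaction was that of Tfrc (log2 difference −1.30, SE 0.64, edgeR adjusted p = 0.588).

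Ratios of 2 members within a library do not depend on library scaling. The log2 ratio of Fth1 to Ftl1 counts, heavy over light ferritin chain, was 1.28, 1.72, 1.93, 1.96 and 1.75 in F1, F2, F3, M1 and M2 of MG CTL in turn and 2.21, 2.44, 2.38, 1.99 and 2.17 in MG BLZ945. The 2 groups did not overlap. The means were 1.73 ± 0.27 and 2.24 ± 0.18 (SD, n = 5 each), a difference of 0.51 (p = 0.0079 in a two-sided exact permutation test, the lowest p possible with 5 against 5, adjusted p = 0.0794 over the 10 ratio tests). Means in sdCAMs were 1.78 ± 0.15 in tdT- CTL, 1.96 ± 0.23 in tdT- BLZ945 (n = 5 each) and 1.86 ± 0.039 in tdT+ BLZ945 (SD, n = 3), with overlapping ranges. Between tdT- sdCAMs and MG of BLZ945 mice the difference was −0.28 (two-sided exact permutation test, p = 0.0635, adjusted p = 0.179), and tdT- lay below MG in 5 of 5 animals or pools (exact sign-flip permutation p = 0.0625, the lowest that 5 pairs allow). The log2 ratio of Tfrc to Slc40a1, iron uptake over export, was −2.998 ± 0.98 in MG CTL, −2.90 ± 0.40 in MG BLZ945, −3.49 ± 0.57 in tdT- CTL, −4.63 ± 1.52 in tdT- BLZ945 (SD, n = 5 each) and −2.66 ± 1.41 in tdT+ BLZ945 (SD, n = 3). It was lower in tdT- than in MG of BLZ945 mice by 1.74 (two-sided exact permutation test, p = 0.0238, adjusted p = 0.119) and higher in tdT+ than in tdT- sdCAMs by 1.97 (p = 0.0714 in the same exact test, adjusted p = 0.179). None of the 10 ratio tests passed after adjustment. These tests did not use that the populations came from the same animals or pools. Paired by animal, tdT- lay below MG in 5 of 5 pairs (difference −1.74, exact sign-flip permutation p = 0.0625, the lowest that 5 pairs allow), and tdT+ lay below tdT- in 1 of 3 pairs, F3, and above it in F2 and M2 (2.06, exact p = 0.50, with 0.25 the lowest that 3 pairs allow). With single libraries left out the first difference lay between −2.20 and −1.14, the smaller without tdT- BLZ945 F2, and the second between 1.35 and 2.73, the smaller without tdT+ BLZ945 M2 or, at nearly the same value, tdT- BLZ945 F2, and the larger without tdT+ BLZ945 F3.

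**Figure D4:**
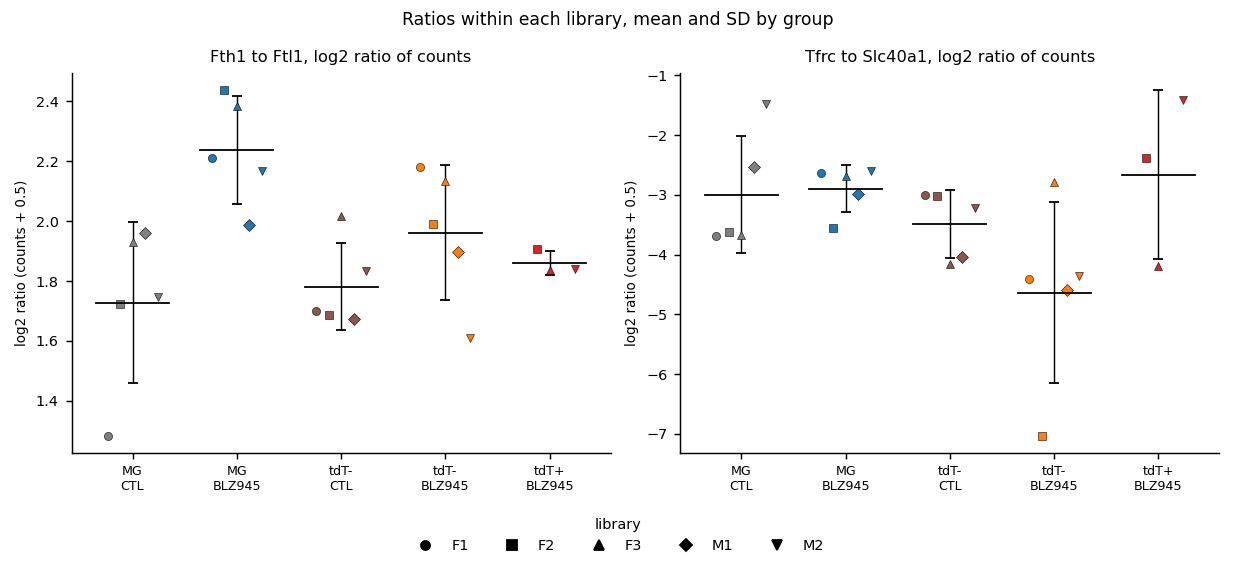
Log2 ratio of Fth1 to Ftl1 counts (left) and of Tfrc to Slc40a1 counts (right) in each library, 0.5 added to counts, with group mean and SD and symbols for library names. The 5 MG BLZ945 libraries lie above the 5 MG CTL libraries in the left panel; library F2 of tdT- BLZ945 is the lowest point of the right panel at −7.03.

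Other genes of iron and heme handling were taken from a list of 45, of which 44 were in the table and 35 were tested between tdT- sdCAMs and MG. Cd163 and Spic passed the expression filter only through the sdCAM libraries, so their levels are given without a test and they are left out of the counts, which take in the listed genes that passed the filter in MG and in sdCAMs each. In CTL mice 7 of 32 such genes were higher and 5 lower in tdT- sdCAMs than in MG, against 23.3% of all genes passing in both that were called in either direction. In BLZ945 mice 6 of 32 were higher and 7 lower in tdT- sdCAMs (30.2% of all such genes), and in tdT+ sdCAMs 5 of 31 were higher and 7 lower (29.5%). Of the same genes DESeq2 called 8 higher and 5 lower, 7 and 7, and, with 30 having an adjusted p, 5 and 7, against 26.7%, 34.2% and 34.8% of all genes passing in both. Cd163, the scavenger receptor for haemoglobin bound to haptoglobin and also one of the sdCAM markers used above, was at 1704 ± 332 CPM in tdT- CTL against 1.65 ± 1.74 CPM in the MG of these mice (SD, n = 5 each). In BLZ945 mice its MG level was 0.294 CPM (SD 0.403). Spic, a transcription factor needed for iron-recycling macrophages of the spleen, was at 35.9 ± 16.5 CPM in tdT- CTL, 21.1 ± 7.23 CPM in tdT- BLZ945 (SD, n = 5 each) and 21.3 ± 18.4 CPM in tdT+ BLZ945 (SD, n = 3), and at most 1.28 CPM in any MG library. Cp is the ferroxidase ceruloplasmin, which works with ferroportin and is also known from astrocytes. It was at 423 ± 67.1 CPM in tdT- CTL against 5.70 ± 5.03 CPM in their MG (SD, n = 5 each, edgeR adjusted p = 8.301e-10). In BLZ945 mice it was at 358 ± 34.3 CPM in tdT- (n = 5) and 313 ± 17.7 CPM in tdT+ sdCAMs (SD, n = 3). The higher astrocyte marker sum of sdCAMs came mostly from Gja1. In tdT- CTL its mean was 107 CPM, and those of Slc1a2, Gfap and Aqp4 were 9.62, 6.54 and 2.38 CPM. In MG CTL the 4 means were 2.63, 1.41, 1.36 and 0.817 CPM. The part of astrocytes in the Cp level was not tested.

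Called lower in sdCAMs in all 3 comparisons were, among others, Hebp1, a heme-binding protein, Abcg2, a porphyrin exporter, Slc39a14 and Slc22a17. Hebp1 was at 31.1 ± 19.5 CPM in tdT- CTL against 236 ± 153 CPM in their MG (SD, n = 5 each, log2 fold change −2.93, SE 0.66, edgeR adjusted p = 0.001972). Its ranges overlapped, and M1 was the lowest library in both CTL populations and F2 in all 3 BLZ945 populations. Abcg2 was at 66.8 ± 10.8 CPM in MG CTL and 19.5 ± 4.71 CPM in tdT- CTL without overlap (log2 fold change −1.78, SE 0.47, edgeR adjusted p = 0.007161), and in BLZ945 mice it was 4.07-fold lower in tdT- sdCAMs (edgeR adjusted p = 0.002533), where library M2 held 3 counts. Slc39a14, a zinc and iron importer, was at 49.6 ± 22.2 CPM in MG CTL and 14.4 ± 6.15 CPM in tdT- CTL (log2 fold change −1.79, SE 0.39, edgeR adjusted p = 0.00157). In BLZ945 mice it was at 30.4 ± 20.8 CPM in tdT- sdCAMs against 67.1 ± 17.1 CPM in MG (SD, n = 5 each). There tdT- M2, at 66.5 CPM, lay within the MG range. In tdT+ sdCAMs it was 6.03-fold below MG BLZ945 (edgeR adjusted p = 0.0001204). The related Slc39a8 was 5.12-fold lower in tdT+ sdCAMs than in MG BLZ945 (log2 fold change −2.35, edgeR adjusted p = 0.0066). With single libraries left out, this lay between −3.19 and −1.89. Slc39a8 was not called in CTL mice. Slc22a17, a receptor for lipocalin 2, was at 40.2 ± 10.9 CPM in MG BLZ945 and 11.2 ± 2.91 CPM in tdT- BLZ945 (SD, n = 5 each, −1.82, SE 0.25, edgeR adjusted p = 6.906e-06).

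**Figure D5:**
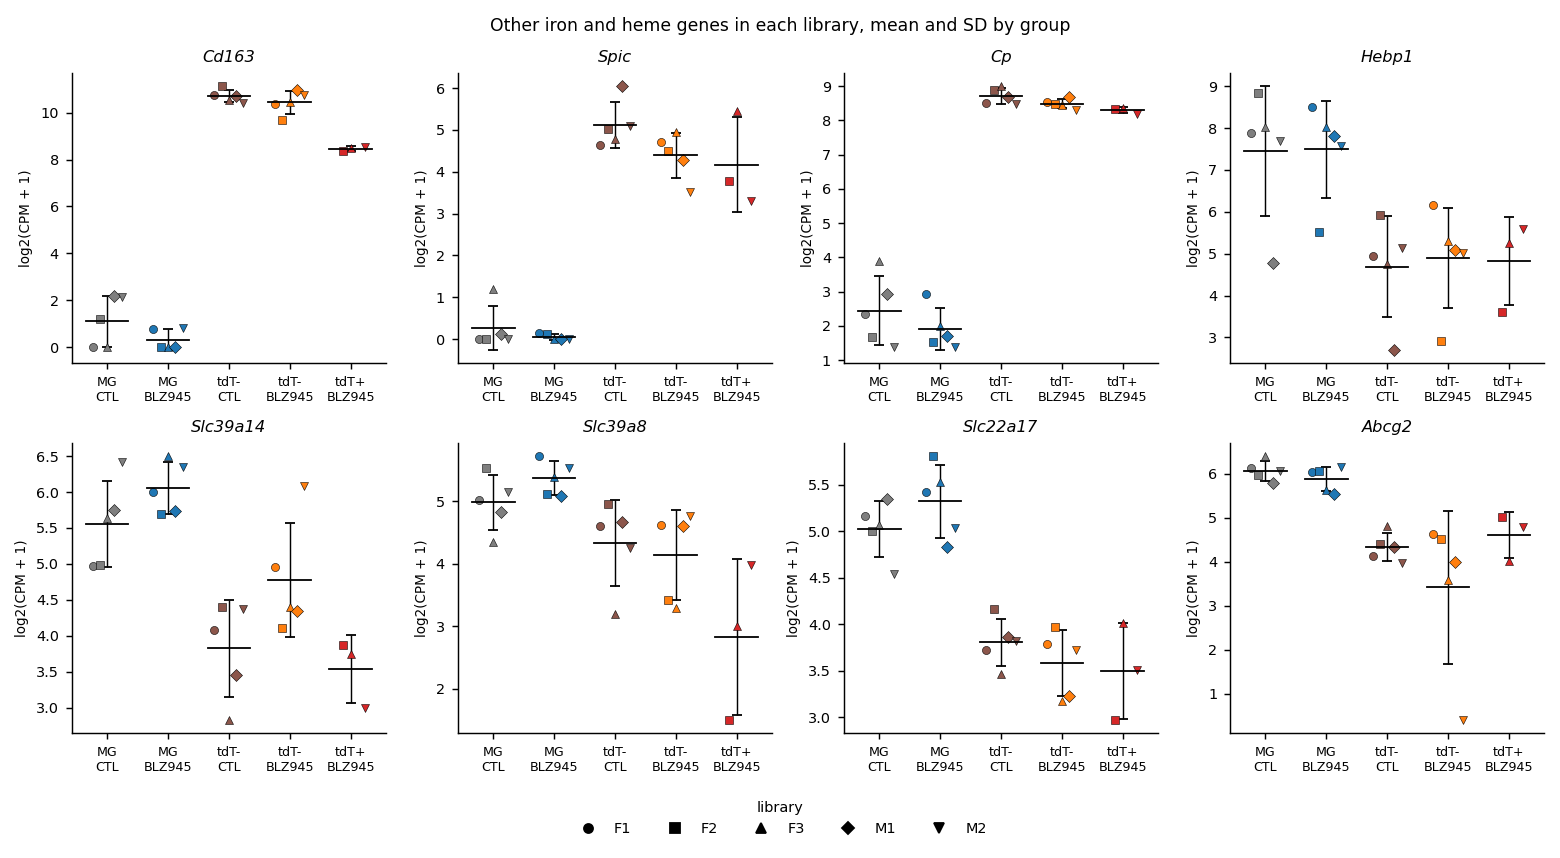
Levels of 8 further iron and heme genes as log2(CPM + 1) in every library, with group mean and SD (vertical axes differ). Cd163, Spic and Cp are near 0 or low in MG and high in sdCAMs, Hebp1, Slc39a14, Slc39a8, Slc22a17 and Abcg2 have higher means in MG, and Cd163 is lower in the 3 tdT+ libraries than in the tdT- libraries.

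Within sdCAMs, 1 of the 36 listed genes tested was called by edgeR between tdT+ and tdT- BLZ945 cells, against 0.206% of all genes, and the same gene was the only one it called against tdT- CTL (0.283% of all genes), while DESeq2 called 2 in each, against 1.02% and 1.39% of all genes. This was Cd163, at 324, 361 and 373 CPM in tdT+ F2, F3 and M2 and at 1318, 814, 1404, 2020.1 and 1729.8 CPM in tdT- BLZ945. Its 3 tdT+ libraries were close together and below all tdT- libraries, a 4.19-fold difference (log2 fold change −2.07, SE 0.26, edgeR adjusted p = 0.00117). The joint model of the 23 libraries did not call it (adjusted p = 0.0871). Against tdT- CTL it was 4.84-fold lower (−2.27, SE 0.26, edgeR adjusted p = 0.0005324), which the joint model did not call either (adjusted p = 0.0523). Between BLZ945 and CTL none of the listed genes was called (edgeR, and 0 with DESeq2), with 1 of 32 at an unadjusted p under 0.05 in MG (13.2% of all genes) and 3 of 36 in tdT- sdCAMs (5.33% of all genes).

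The order of the groups differed between members. For Hmox1, Blvrb and Blvra all 3 sdCAM groups came before both MG groups, and the only neighbours that did not overlap were the lowest sdCAM group and MG CTL. For Slc40a1 the order was tdT- CTL, tdT- BLZ945, MG CTL, MG BLZ945 and tdT+ BLZ945, and neighbours did not overlap at the first and the last step. For Slc11a1 the order ran from MG BLZ945 to tdT+ BLZ945 with every pair of neighbours overlapping, as it did for Tfrc, Fth1 and Ftl1. The genes most like Hmox1 over the 23 libraries, by Pearson correlation of log2(CPM + 1) across 8802 genes compared, were C4b (r = 0.953), Eps15 (0.946) and Vav3 (0.942). For Slc40a1 they included Bcl7a (0.842) and Dera (0.842), and for Blvrb they were Snx3 (0.986), Lgals1 (0.9855) and Ccl24 (0.9855). These values are descriptions over libraries of 5 groups that share animals, and the difference between sdCAMs and MG is part of each.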

How the data were processed

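Gene counts of the 23 libraries were used as deposited. To make them, the authors demultiplexed reads with bcl2fastq 2.20, aligned with STAR 2.7.11a and counted reads per gene with featureCounts 2.0.6 (versions from the submitters' processing notes). How reads matching several places were treated is not given in the sources used here, and the genome build could not be settled, so no gene positions are printed from the table. The hairpin search used Gencode M21 on GRCm38.

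Counts were scaled by TMM factors and given as CPM. Genes with low counts were removed by edgeR's expression filter. Comparisons used edgeR 4.0.16 quasi-likelihood tests in R 4.3.3, on the 10 MG libraries, the 13 sdCAM libraries, the 20 tdT- and MG libraries, or the 8 libraries of MG and tdT+ BLZ945, with Benjamini-Hochberg adjustment over all genes of a comparison. Ratios (0.5 added to counts) were compared by exact permutation tests with SciPy 1.17.1. The steps were tested on simulated data. Alternatives were DESeq2 1.42.0, other scaling factors, no filter, a model of all 23 libraries, a block, and leaving out each library. Omitting tdT- BLZ945 F1 and F2 jointly, the animal block for the interaction the same-animal relations and the pathway counts over genes passing the filter in both populations were chosen after seeing the data. Members and lists were chosen with earlier results of these data known. All members were named, and further pathway genes where called at an average log2 CPM of at least 3, up to 6 per comparison by fold change. One of the genes most like Slc40a1 and 1 red cell marker are not reported here.

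Pairing came from the animal numbers in the library names: deviations of same-animal libraries from their group means correlated at 0.160, 0.136, 0.106 and 0.197 on average in the 4 pairs of populations. Libraries of MG BLZ945 and MG CTL with the same label, from different animals, reached 0.103 on average (highest 0.299), so the pairing rests on the names and not on these correlations. Between treatments only labels were shared. No 2 libraries were duplicates (chi-square per gene at least 16.5). CTL libraries held 1 animal and most BLZ945 libraries 2, so p-values measure the spread between libraries of an animal or a pool. The main edgeR fits treated populations of the same animal or pool as independent libraries. The animal was a block only in an alternative. With total counts between 9433960 and 13276081, 3 counts, the upper limit that a count of 0 allows, came to between 0.230 and 0.331 CPM, and this covers counting error only.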

Additional observations from a re-analysis of the deposited data

Results flagged for a closer look

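Of the 36 groups of 5 libraries tested for a single library far from the others, 2 were marked, and chance marks about 1 in 20 such groups. Blvrb in MG CTL was at 111 CPM in M2 against 63.9 CPM in the next library, a gap of 0.799 of the group's range (critical value 0.71). Slc40a1 in tdT- CTL was at 819 CPM in M1 against 548 CPM in the next library, a gap of 0.934 of the range. That library also had the highest oligodendrocyte marker sum of its group (232 CPM), whose part in the value was not tested. MG CTL M2 also had the lowest sum of MG markers (17100 CPM) of its group, and the part of this in the Blvrb value was not tested.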

How the results depend on the processing

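With 3 to 5 libraries a group, small differences were not resolved, and no member that reversed under an alternative had been called in the first place. Members called between tdT+ and tdT- BLZ945 went from 0 to 1 with DESeq2, without the filter and in the model of all libraries, and lay between 0 and 1 with single libraries left out. Against tdT- CTL they went from 1 to 2 with DESeq2 and in the model of all libraries. Between MG BLZ945 and MG CTL they lay between 0 and 1 with single libraries left out. With the animal or label as a block, log2 differences that changed sign were those of Blvrb between tdT- BLZ945 and CTL (−0.025), Blvra between tdT+ BLZ945 and tdT- CTL (−0.026), Tfrc between tdT+ and MG BLZ945 (−0.34, and −0.013 without the filter) and Hmox1 in the interaction (0.19). The block ended the Fth1 call between tdT+ and MG BLZ945 and no other member's call. Without both tdT- BLZ945 F1 and F2, Hmox1 (0.27), Slc11a1 (0.13) and Blvrb (−0.020) changed sign between tdT- BLZ945 and CTL, as did Hmox1 in the interaction (0.27). The cause was not tested.

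With single libraries left out, the following log2 differences spanned 0. Between MG BLZ945 and CTL, Hmox1 lay between −0.36 and 0.23, Ftl1 between −0.23 and 0.12, Tfrc between −0.30 and 0.18, and Blvra between −0.14 and 0.0057. Between tdT- BLZ945 and CTL, Hmox1 lay between −0.52 and 0.14, Slc11a1 between −0.27 and 0.030, and Blvrb between −0.12 and 0.11. Between tdT+ and tdT- BLZ945, Fth1 lay between −0.28 and 0.025, Ftl1 between −0.15 and 0.11, and Tfrc between −0.35 and 1.09. Blvra between tdT+ BLZ945 and tdT- CTL lay between −0.17 and 0.13, Slc11a1 between tdT- and MG CTL between −0.13 and 0.039, Hmox1 in the interaction between −0.52 and 0.29, and Tfrc between tdT+ and MG BLZ945 between −0.92 and 0.52. The Tfrc to Slc40a1 ratio between MG BLZ945 and CTL lay between −0.069 and 0.48, and the Fth1 to Ftl1 ratio between tdT- and MG CTL between −0.058 and 0.11.

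Over all genes, counts of calls moved by over 1.5 times as follows. Between MG BLZ945 and CTL, 46 genes became 238 with DESeq2, 193 without the filter, 12 in the model of all libraries and 89 with the label block. Between tdT- BLZ945 and CTL, 0 became 56 with DESeq2 and 29 in the model of all libraries. Between tdT+ and tdT- BLZ945, 27 became 133, 82 in the model of all libraries and 6 with the animal block. Between tdT+ BLZ945 and tdT- CTL, 37 became 181, 61 without the filter and 121 in the model of all libraries. In the interaction, 5 became 94, 9 without the filter, 1 in the model of all libraries, 0 with the label block, 1 with the animal block and 40 without both doubted libraries. Between tdT+ and MG BLZ945, 3668 became 1697 with the animal block. With single libraries left out, the 46 lay between 22 (without MG CTL F2 or M1) and 102 (without MG CTL M2), with 94 without MG BLZ945 F2 and under 30 without MG BLZ945 F3, M1 or M2 or MG CTL F1. The 27 fell to 16 or 17 without tdT+ F2 or F3 or tdT- BLZ945 M1, and the 37 to 21 without tdT+ F2. The 5 of the interaction lay between 0 (without MG CTL F2 or M1) and 36 (without tdT- BLZ945 F1), and stayed within 1.5 times only without MG BLZ945 F3, MG CTL F3 or M2, or tdT- CTL F2, F3 or M2.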

Other observations

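Each brain gave MG and tdT- sdCAMs, so deviations of the 2 populations from their group means could be set side by side over the 10 animals or pools. Of 9 members, chosen for this comparison after their values were seen, Fth1 had the highest correlation (Pearson's r = 0.656, permutation p = 0.0316, Benjamini-Hochberg adjusted p = 0.255, Spearman's rho = 0.721, permutation p = 0.0244, r = 0.631 without the 2 animals or pools farthest from the median). By Pearson's r Hmox1 followed (r = 0.612, permutation p = 0.0567, adjusted p = 0.255, rho = 0.467, permutation p = 0.179, r = 0.666 without the 2 farthest). By Spearman's rho Blvrb was second (rho = 0.6485, permutation p = 0.0485, with r = 0.459, permutation p = 0.1725, adjusted p = 0.3105). None of the 9 Pearson correlations passed after adjustment over the 9, and the Spearman p-values were not adjusted. The F2 and M1 pools of BLZ945 mice share an animal number, so the 10 points may not all be independent.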
